A study of Mus musculus with 6 samples.

Results

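The enzymes described here are those of the pentose phosphate pathway together with the main enzymes outside it that make NADPH in the cytosol or the endoplasmic reticulum, measured in mouse myotubes with and without *Dj1* knockdown. The members were 10 genes chosen by name, written in capitals as G6PDX, PGD, PGLS, TKT, TALDO1, RPIA, RPE, ME1, IDH1 and H6PD and below as gene symbols, and a probe belonged to them if the gene name given for it in the array table was 1 of these. Of the 30854 gene names in the table, 9 were members, with 16 of the 45281 probes. No probe was listed as ME1, but 1 probe listed under the older name Mod1 carries the gene number of Me1, so it is described beside the members and left out of their counts. The cells were C2C12 myoblasts, a mouse muscle line that fuses into myotubes once serum is withdrawn. Both groups were transfected at 60 nM, one with a scramble siRNA and the other with an siRNA against *Dj1*, then moved to differentiation medium after 48 h and collected after 4 days. Each group had 3 samples, every one hybridized to its own array. The groups differ in which siRNA they received, so the loss of *Dj1* and any other effect of that siRNA cannot be told apart, and p-values measure the spread between these samples alone.

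The pentose phosphate pathway branches from glycolysis at glucose 6-phosphate. Its oxidative branch burns this sugar to a pentose and reduces NADP to NADPH on the way, and its non-oxidative branch, which is reversible, exchanges pentoses for the sugar phosphates of glycolysis and so can supply ribose for nucleotides from either side. NADPH drives lipid and sterol synthesis and keeps glutathione and thioredoxin reduced, and cells also make it with cytosolic malic enzyme and isocitrate dehydrogenase, while H6pd runs the first oxidative steps inside the endoplasmic reticulum. In muscle the pathway is best known for supplying ribose and NADPH during growth and repair, and DJ-1 is a protein that protects cells from oxidative stress.

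Knockdown was checked on the array. The deposited signal of Park7, the symbol of *Dj1*, was 12020, 10900 and 12251 in scramble samples and 5935, 6586 and 4234 in knockdown samples. All 3 knockdown samples were thus far below all scramble samples. On the normalized log2 scale, in which background was removed and the arrays were brought to the same distribution, Park7 fell by 1.16 (standard error 0.14, limma adjusted p = 0.00344).

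Of the 16 member probes, 10 passed the filter that asks for detection above the negative control beads (detection p under 0.05) on at least 3 arrays, and these cover all 9 listed genes. Of these 10, 9 were detected on all 6 arrays. The other, a dim Pgls probe, passed through the DJ-1 siRNA arrays alone. After *Dj1* knockdown 1 of the 10 tested member probes was called higher at a limma adjusted p under 0.05 and 0 were called lower, against 30.1% of all tested probes called in either direction, 16.5% called higher and 13.6% called lower. At an unadjusted p under 0.05 the counts were 2 higher, with the dim Pgls probe added, and 0 lower. All 17890 tested probes gave 4220 higher and 3439 lower at that threshold. The median log2 fold change of the 10 probes was 0.04, and over all 17890 tested probes it was 0.05. The sign of the former rests on single arrays, since it was -0.05, 0.06 and 0.08 without scramble replicate 1, 2 and 3 and 0.03, -0.01 and 0.08 when replicate 1, 2 and 3 of the DJ-1 siRNA group were left out, and it was 0.0032 with a stricter filter that leaves out the dim Pgls probe. Groups did not overlap for 2 of the 10 probes, against 48.5% of all tested probes, and these 2 were Tkt and the dim Pgls probe, whose groups overlapped before normalization. The number of called probes was lower with fewer arrays, with 5387 called in all and 2559 or 2712 when replicate 1 or 3 of the DJ-1 siRNA group was left out.

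**Figure D1:**
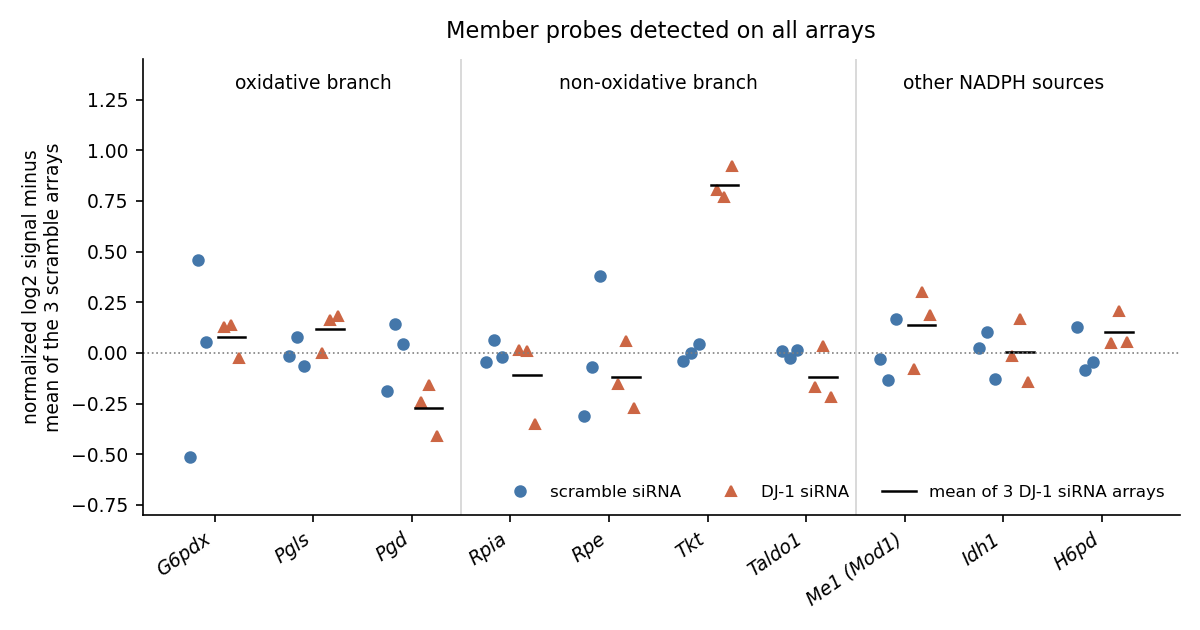
Normalized log2 signal on each array of the member probes detected on all arrays and of the Mod1 probe, less the mean of the 3 scramble arrays, with scramble arrays as circles, DJ-1 siRNA arrays as triangles and the mean of the latter as a line. Tkt lies about 0.83 above its scramble mean on the DJ-1 siRNA arrays, whereas for the other probes the groups overlap.

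Tkt, the transketolase that moves 2-carbon units between sugar phosphates and joins the pathway to glycolysis in its non-oxidative branch, was the member that rose. Its detected probe (ILMN_2607880) had a deposited signal of 1166, 1191 and 1158 in scramble samples and 1949, 2087 and 1856 in knockdown samples. The scramble samples lay close together, every knockdown sample was above every scramble sample, and the gap between the groups was wider than the spread within either. Each of these values is a mean over 30 to 41 beads, with a standard error over beads of 55.1 to 66.9 on the scramble arrays and 84.5 to 111.1 on the DJ-1 siRNA arrays. After normalization the log2 signal was 9.97, 10.00 and 10.05 in scramble myotubes and 10.81, 10.77 and 10.93 in knockdown myotubes, which gives a mean of 10.01 ± 0.04 (SD, n = 3) and of 10.84 ± 0.08 (SD, n = 3). The log2 fold change was 0.83 (standard error 0.09, 95% interval 0.61 to 1.06, limma adjusted p = 0.00323), a 1.78-fold rise. A two-sided exact permutation test on this probe gave p = 0.1, the smallest that 3 arrays against 3 allow. A larger log2 fold change was seen for 929 of the tested probes (5.19%). The other 3 Tkt probes were not detected on any array and were not tested, so the rise rests on 1 probe. Arrays of whole cultures cannot tell a change in the RNA of each cell from a change in the share of cells that hold it. Tkt was called with each array left out in turn, with log2 fold changes of 0.78 to 0.86.

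**Figure D2:**
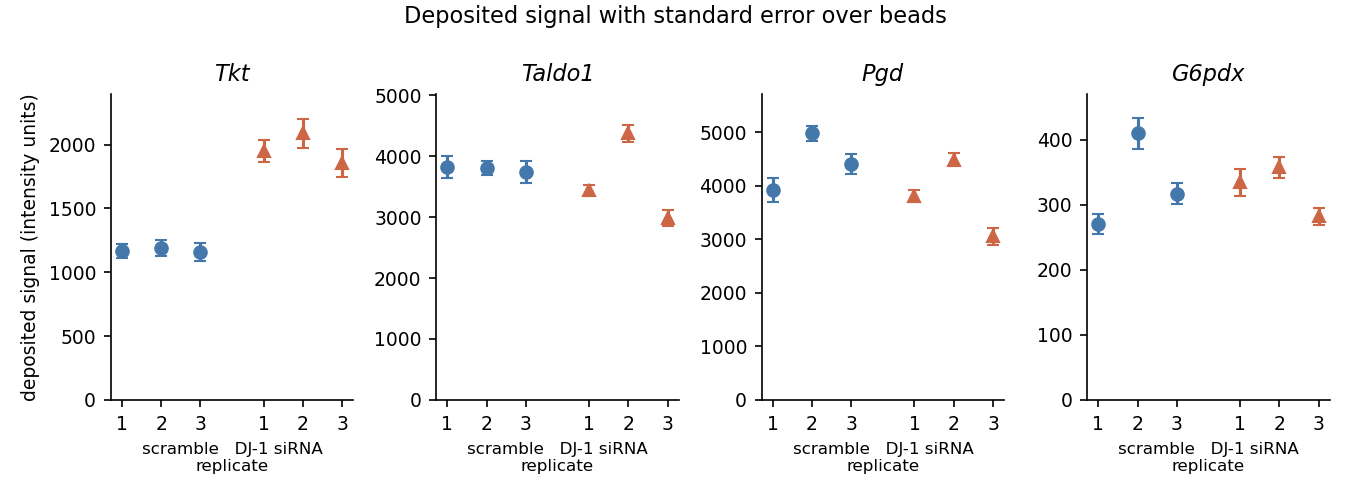
Deposited signal, before background correction or normalization, of 1 probe each of Tkt, Taldo1, Pgd and G6pdx on the 3 scramble arrays (circles) and the 3 DJ-1 siRNA arrays (triangles), with the standard error over beads as bars and axes that start at 0. Tkt is at 1158 to 1191 in scramble and at 1856 to 2087 in knockdown samples, and the other genes overlap between the groups.

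Taldo1, the transaldolase that works beside transketolase on the same sugar phosphates, had a deposited signal of 3830, 3805 and 3735 in scramble samples and 3445, 4373 and 2979 in knockdown samples. Its scramble samples were nearly alike, and the knockdown samples lay on both sides of them. The log2 fold change was -0.12 (standard error 0.10, 95% interval -0.37 to 0.13, limma adjusted p = 0.434), and it turned to 0.012 when the arrays were shifted to a common 75th percentile after background correction. The interval of Taldo1 ends below the lower limit of 0.61 for Tkt.

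Rpia and Rpe, the isomerase and the epimerase that turn ribulose 5-phosphate into the substrates of transketolase, each had 1 probe detected on every array. Normalized log2 signal of Rpia was 8.92, 9.03 and 8.95 in scramble and 8.98, 8.98 and 8.62 in knockdown samples. Only DJ-1 siRNA replicate 3 was low, and the others overlapped. The log2 fold change of Rpia was -0.11 (95% interval -0.42 to 0.20, limma adjusted p = 0.561) and 0.013 without that replicate. The detected Rpe probe (ILMN_1255006) read 7.87, 8.11 and 8.57 in scramble and 8.03, 8.25 and 7.92 in knockdown samples. Here scramble replicate 3 was the highest of all samples, and the spread within the scramble group was wider than the gap between the groups. The Rpe log2 fold change of -0.12 (95% interval -0.58 to 0.34, limma adjusted p = 0.674) became 0.07 without scramble replicate 3. A further Rpe probe was not detected on any array.

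The promoters of the 2 transferase genes of this branch are shown because Tkt rose and Taldo1 was not called. The sequences are the 250 bases before the transcription start in the RefSeq table of GRCm38.p6, both from the plus strand, at chr14:30548881-30549130 for Tkt and chr7:141391910-141392159 for Taldo1. Capitals mark the letters ACGTG or GCGTG on either strand, the core of the element that hypoxia-inducible factors bind.
Tkt: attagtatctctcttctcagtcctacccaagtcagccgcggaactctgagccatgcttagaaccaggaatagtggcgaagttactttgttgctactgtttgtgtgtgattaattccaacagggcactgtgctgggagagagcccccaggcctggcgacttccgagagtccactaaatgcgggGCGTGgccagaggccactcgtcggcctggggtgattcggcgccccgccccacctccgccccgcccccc
Taldo1: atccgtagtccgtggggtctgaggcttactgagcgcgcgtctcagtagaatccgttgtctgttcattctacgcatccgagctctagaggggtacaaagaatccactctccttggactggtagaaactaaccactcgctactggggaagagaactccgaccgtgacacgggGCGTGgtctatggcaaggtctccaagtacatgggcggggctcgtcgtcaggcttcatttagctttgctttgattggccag
Each window holds 1 such match, at position -68 in Tkt and -80 in Taldo1 counted from the start. This is common, since 38.6% of 32851 mouse promoter windows of this length hold a match, as did 8 of the 13 windows listed for the 10 member genes. The GC box letters GGGCGG on either strand, overlapping matches counted, were found 3 times in Tkt and 1 time in Taldo1, and 32.7% of all windows and 10 of the 13 member windows hold at least 1. The letters TGACNNNGC, the core of the antioxidant response element, were found in neither window and among the member genes only in that of G6pdx, against 10.2% of all windows. These matches describe the sequence, and binding there was not measured.

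G6pdx, which opens the oxidative branch and makes its first NADPH, was detected on every array but close to background. Its deposited signal was 270.8, 409.8 and 317.2 in scramble samples and 334.6, 357.9 and 282.2 in knockdown samples, against a median over all probes of 152 to 167 per array. The lowest and the highest value both came from scramble samples, with the knockdown samples between them. After normalization the mean was 7.54 ± 0.49 (SD, n = 3) on the log2 scale for scramble and 7.62 ± 0.09 (SD, n = 3) for knockdown myotubes. The log2 fold change was 0.08 (standard error 0.24, 95% interval -0.48 to 0.64, limma adjusted p = 0.824), and without scramble replicate 1 it was -0.17. This interval is the widest among the members detected on every array, so that a change of G6pdx by up to 1.56-fold upwards is within it. G6pd2, a close copy of G6pdx on another chromosome, was detected on no array by 1 probe and on 1 scramble array by another, and neither probe was tested.

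Pgls, the lactonase of the second oxidative step, had 4 probes. The bright one (ILMN_2664548) had a normalized log2 signal of 11.28, 11.37 and 11.23 in scramble and 11.29, 11.46 and 11.48 in knockdown samples. The highest values were those of knockdown samples, but the groups overlapped. Its log2 fold change was 0.12 (standard error 0.10, 95% interval -0.13 to 0.36, limma adjusted p = 0.425). The dim probe that passed the filter (ILMN_1244761) had a deposited signal of 174.2, 172.2 and 159.5 in scramble samples and 179.7, 204.4 and 162.3 in knockdown samples. It was detected on 0 scramble and on 3 DJ-1 siRNA arrays, so it passed the filter through the group in which it was higher, and its change is not given. Its deposited signals overlapped between the groups, and it was not called. The other 2 Pgls probes were detected on no array.

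Pgd, which makes the second NADPH of the branch and releases the pentose, was the uncalled member with the lowest log2 fold change. Its deposited signal was 3922, 4980 and 4416 in scramble samples and 3814, 4490 and 3055 in knockdown samples. DJ-1 siRNA replicate 3 was the lowest, and replicate 2 of that group exceeded scramble replicates 1 and 3. After normalization it read 11.89, 12.22 and 12.12 in scramble and 11.84, 11.92 and 11.67 in knockdown samples, which overlap by 1 scramble sample. The log2 fold change was -0.27 (standard error 0.13, 95% interval -0.57 to 0.03, limma adjusted p = 0.154). With a prior variance that follows the signal, an alternative of limma, Pgd passed the threshold at the same log2 fold change (adjusted p = 0.0348, over a range of 0.0348 to 0.473 across the alternatives). The calls among the members would then be 1 higher and 1 lower. When background-corrected arrays were shifted to a common 75th percentile, Pgd was at -0.14 (limma adjusted p = 0.473).

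**Figure D3:**
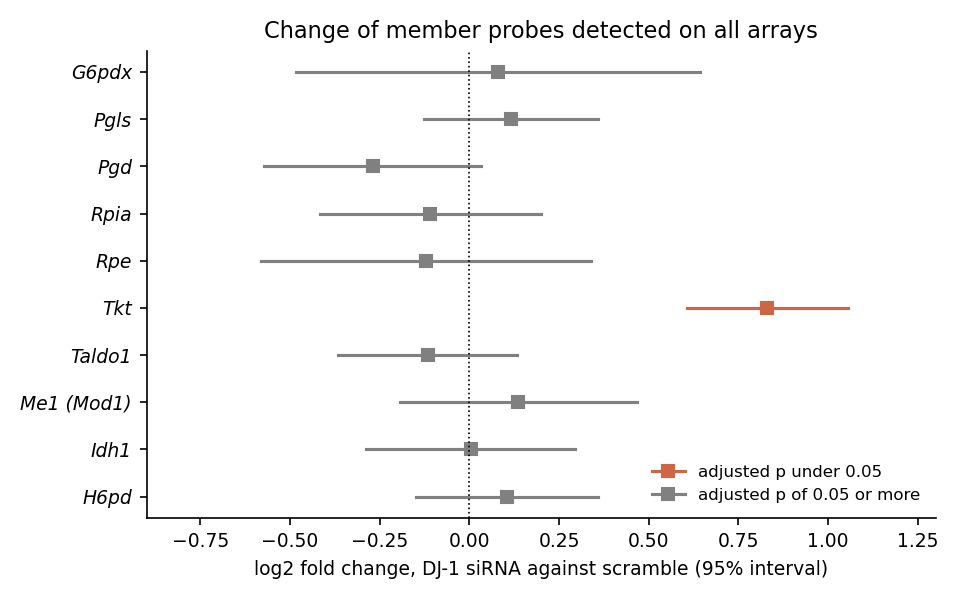
Log2 fold change of each member probe detected on all arrays and of the Mod1 probe, DJ-1 siRNA against scramble, with its 95% interval from limma. The interval of Tkt, 0.61 to 1.06, lies above the intervals of 8 of the other 9 probes, that of G6pdx reaching into it.

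Among the NADPH sources outside the pathway, Idh1, the cytosolic and peroxisomal isocitrate dehydrogenase, had a normalized log2 signal of 10.77, 10.86 and 10.62 in scramble and 10.74, 10.92 and 10.61 in knockdown samples. The groups covered nearly the same range. Its log2 fold change was 0.0032 (standard error 0.12, 95% interval -0.29 to 0.29, limma adjusted p = 0.987), a range of 0.820-fold to 1.23-fold. Leaving out single arrays moved it between -0.08 and 0.08.

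H6pd, which supplies NADPH inside the endoplasmic reticulum, read 10.49, 10.28 and 10.32 in scramble and 10.41, 10.57 and 10.41 in knockdown samples. The groups overlapped, with a log2 fold change of 0.10 (95% interval -0.15 to 0.36, limma adjusted p = 0.494). Over the alternatives the value of H6pd ran from 0.05 to 0.19. The Mod1 probe (ILMN_2937261), which stands for the cytosolic malic enzyme Me1, read 9.68, 9.58 and 9.88 in scramble and 9.64, 10.01 and 9.90 in knockdown samples. Here too the samples were mixed, and the log2 fold change was 0.14 (95% interval -0.19 to 0.47, limma adjusted p = 0.492). With single arrays left out the value of Mod1 ran from 0.06 to 0.24.

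With the Mod1 probe, the 9 probes other than that of Tkt that were detected on every array had 95% intervals that ran from -0.58 at the lowest limit to 0.64 at the highest. A change of 1 on the log2 scale, in either direction, lies outside each of them, while some smaller changes do not. Their standard errors ran from 0.10 to 0.24. The knockdown samples were not alike over these genes. Of the 9 probes detected on every array, Tkt left out, the deposited signal was highest among the knockdown samples in DJ-1 siRNA replicate 2 for 9 and lowest in replicate 3 for 7, and after normalization for 7 and 6. The median deposited signal over all probes had the same order, at 161.0, 166.9 and 152.3 in DJ-1 siRNA replicate 1, 2 and 3. The order on the deposited scale is thus not particular to these genes, and the share of all probes with it was not counted. Tkt did not follow this order after normalization, its highest value being that of replicate 3.

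The rise of Tkt was then set against each other member within the same array, a comparison chosen after seeing that Tkt was called and the others were not, so it is given as a description with no test. The log2 difference between Tkt and the other probe was larger in knockdown than in scramble samples by 0.69 (Mod1) to 1.10 (Pgd) for the 9 probes detected on every array. For each of these 9 pairs all knockdown samples lay above all scramble samples. On the deposited signal, with no correction and no scaling between arrays, the 9 differences were 0.62 to 0.98 and again no pair overlapped. They do not show that the other members held their level.

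Bead noise and detection also differed between the groups. Over all probes the standard error between beads had a median of 11.3, 8.30 and 8.66 in scramble and 7.17, 6.36 and 5.88 in knockdown samples, and each knockdown array detected more probes (18408 to 18857) than any scramble array (16985 to 18179). Scramble arrays were thus the noisier ones. The part of this in the member values was not tested.

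Around the members, 14 other genes of pentose phosphate and ribose metabolism had 8 tested probes, with 1 called higher, 1 called lower and a median log2 fold change of 0.02, where all tested probes had 16.5% higher, 13.6% lower and a median of 0.05. With single arrays left out the median of the list changed sign, at -0.09, 0.13 and -0.01 for scramble replicate 1, 2 and 3 and 0.01, -0.04 and 0.09 for the same numbers of the DJ-1 siRNA group. Prps2, which makes the ribose donor of nucleotide synthesis from ribose 5-phosphate, had a normalized log2 signal of 8.34, 8.33 and 8.55 in scramble and 9.34, 8.98 and 9.32 in knockdown samples. No knockdown sample reached down to the scramble samples, and the log2 fold change was 0.81 (standard error 0.14, limma adjusted p = 0.00797). Prps1, which catalyses the same reaction, was at 0.09 (limma adjusted p = 0.558), and at 0.05 to 0.21 over the alternatives. Prps1l3, a relative of Prps1, fell by 0.59 on the log2 scale (limma adjusted p = 0.0268), a call lost without scramble replicate 2 or 3 or DJ-1 siRNA replicate 2 or 3, and also with the replicate block and with no filter on dim probes (adjusted p of 0.0576 to 0.0725 in these fits, with a range of 0.0055 to 0.0725 over the alternatives). The lower count was 2 with DJ-1 siRNA replicate 1 left out, with a stricter filter and with background-corrected arrays shifted to a common 75th percentile. The transketolase-like gene Tktl1 and the fructose bisphosphatase Tigar were detected on no array.

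Other makers and carriers of NADPH and NADP, 15 genes with 20 tested probes, had 7 probes called higher and 0 called lower, against 16.5% and 13.6% of all tested probes. At an unadjusted p under 0.05 the counts were 8 and 4, against 4220 and 3439 of all 17890 tested probes. The median of the list was 0.11, and 0.03 and 0.07 with scramble replicate 1 and 2 left out. Idh2, the mitochondrial counterpart of Idh1, read 12.24, 11.93 and 11.98 in scramble and 12.73, 12.67 and 12.59 in knockdown samples. All knockdown samples were above all scramble samples, at a log2 fold change of 0.61 (standard error 0.12, limma adjusted p = 0.0116), though the call was lost without DJ-1 siRNA replicate 1 (0.58, adjusted p = 0.052, the largest of a range from 8.5e-05). The mitochondrial citrate carrier Slc25a1 rose on both probes, by 0.89 (0.49 without background correction) and 0.52 (limma adjusted p = 0.00857 and 0.00991). The mitochondrial NAD kinase Nadk2 was detected on 1 scramble and 3 DJ-1 siRNA arrays and passed the filter with the latter, so its call, 1 of the 7 higher, is not read as a rise. That call was lost with DJ-1 siRNA replicate 3 left out (adjusted p = 0.0526, of a range from 0.0136). Both probes of the mitochondrial folate enzyme Aldh1l2 were called (0.68 and 0.43), but not with no filter or with any 1 array left out other than DJ-1 siRNA replicate 2 (for the latter fits log2 fold changes of 0.36 to 0.75, adjusted p of 0.0575 to 0.144, the range over all alternatives beginning at 0.00256). The cytosolic NAD kinase Nadk was at -0.28 and -0.33 and not called (limma adjusted p = 0.112 and 0.0658), although 3 and 6 of 15 alternatives called these probes lower, among them, for the first, the fit with scramble replicate 1 left out (-0.37, adjusted p = 0.0436, of a range of 0.0249 to 0.377). Me2, the mitochondrial malic enzyme, was at 0.05 (limma adjusted p = 0.791), and Me3 was not detected on any array. No Nnt probe passed the filter. Leaving out DJ-1 siRNA replicate 1 or 3 lowered the number called higher here to 3, and leaving out any 1 scramble array or the filter lowered it to 4, and between 0 and 4 probes were called lower over the alternatives.

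**Figure D4:**
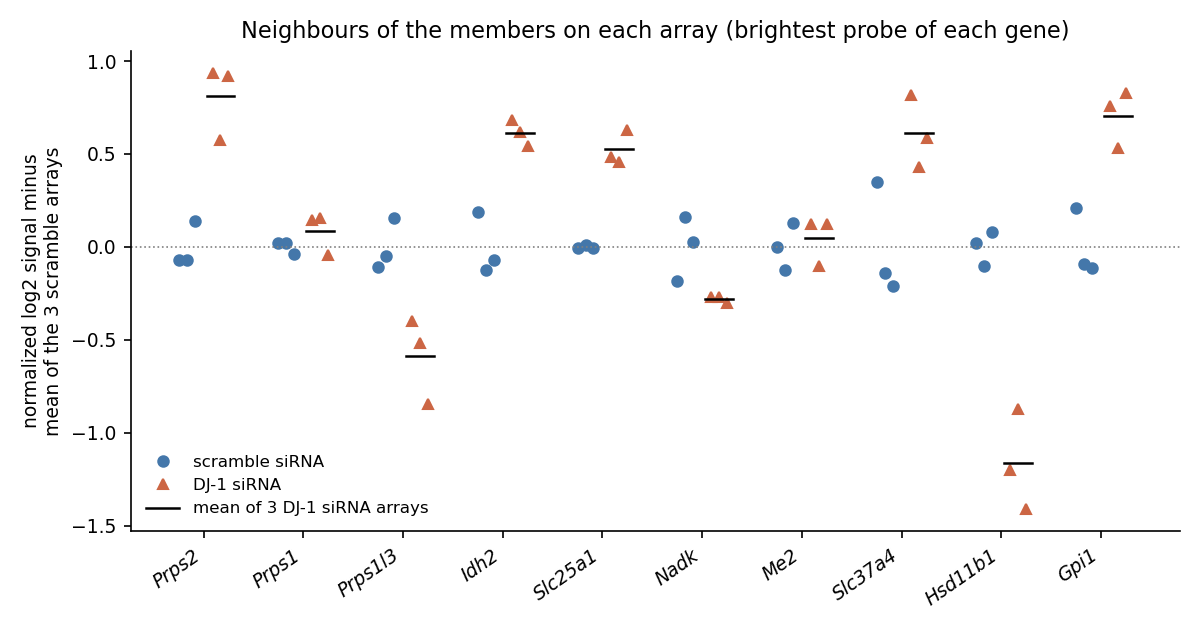
Normalized log2 signal on each array of the brightest probe of each of 10 genes that neighbour the members, less the mean of the 3 scramble arrays, with scramble arrays as circles, DJ-1 siRNA arrays as triangles and the mean of the latter as a line. Prps2, Idh2, Slc25a1, Slc37a4 and Gpi1 lie above the scramble arrays on every knockdown array. Prps1l3, Nadk and Hsd11b1 lie below them, though Nadk was not called, and Prps1 and Me2 overlap.

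Enzymes that consume NADPH, 23 genes with 33 tested probes, had 5 probes called higher and 7 called lower, against 16.5% and 13.6% of all tested probes, with a median of -0.04 that turned to 0.01 when uncorrected arrays were shifted to a common 75th percentile. This median was -0.11 with scramble replicate 3 left out and -0.0016 and -0.06 with DJ-1 siRNA replicate 1 and 2 left out. Hsd11b1, the glucocorticoid-activating reductase that draws on the NADPH made by H6pd, read 12.27, 12.14 and 12.33 in scramble and 11.04, 11.37 and 10.83 in knockdown samples on the probe ILMN_3115917. Every knockdown sample was lower than every scramble sample, and 3 of its 4 tested probes fell by 1.13 to 1.16 on the log2 scale (limma adjusted p of 0.00374 to 0.00707), while H6pd itself was not called. The fourth, a dim probe, was at -0.14 (limma adjusted p = 0.545). Blvrb, the NADPH-dependent biliverdin and flavin reductase, rose on both probes, by 1.06 and 0.83 (limma adjusted p = 0.00285 and 0.00443), and Sqle, the epoxidase of sterol synthesis, fell by 0.98 (0.58 without background correction) and 0.80 (limma adjusted p = 0.0094 and 0.00365). Por, the reductase that feeds electrons to cytochromes P450, had 3 tested probes. The brightest of them was at 0.20 with overlapping groups (limma adjusted p = 0.265), and another at 0.49 was called (limma adjusted p = 0.0226), though not without scramble replicate 3 or DJ-1 siRNA replicate 1 or 3 (0.43 to 0.48), nor with the replicate block or with no filter. The last was detected on no scramble array and had passed the filter through the DJ-1 siRNA arrays, so its call, 1 of the 5 higher, is not read as a rise. Txnrd1 was at 0.18 (limma adjusted p = 0.413), and at 0.06 to 0.28 over the alternatives. Gsr was not analysed here. The higher count was 2 with DJ-1 siRNA replicate 1 or 3 left out and with the replicate block, and 3 with scramble replicate 3 left out and with no filter.

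Upstream of the pathway, 15 genes that supply or use glucose 6-phosphate had 13 tested probes. Of these, 7 were called higher and 0 lower by limma, against 16.5% and 13.6% of all tested probes. At an unadjusted p under 0.05 the counts were 8 and 0, against 4220 and 3439 of all 17890 tested probes. The median of the list was 0.38, and 0.66 with scramble replicate 1 left out. The liver-type glycogen phosphorylase Pygl rose by 1.83 (1.155 without background correction) on 1 of 2 called probes, the size on the other being left out since it was detected on 2 scramble and 3 DJ-1 siRNA arrays, and the glucose 6-phosphate isomerase Gpi1, which draws on the substrate of G6pdx, by 1.22 and 0.71, the last of these losing its call without DJ-1 siRNA replicate 1 (0.67, limma adjusted p = 0.0501, of a range from 4.94e-05). The muscle-type glycogen phosphorylase Pygm was at -0.44 with overlapping groups and was not called (limma adjusted p = 0.234). Slc37a4, which carries glucose 6-phosphate into the endoplasmic reticulum where H6pd acts, was at 0.61 (limma adjusted p = 0.0449), and 1 of 2 probes of Pgm1 at 0.34 (limma adjusted p = 0.0376). Both of these calls were lost without scramble replicate 2 or 3 and without any 1 of the DJ-1 siRNA replicates, at 0.51 to 0.70 for Slc37a4 and 0.30 to 0.38 for Pgm1, as well as with no filter, and Slc37a4 was at 0.29 without background correction. The replicate block also lost the call of Pgm1. The count called higher fell to 3 without DJ-1 siRNA replicate 1 and to 4 with no filter and without scramble replicate 3 or DJ-1 siRNA replicate 2 or 3. Hk2 was not analysed here.

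NRF2 and SREBP are the transcription factors best known for acting on these enzymes. Among 16 genes of NRF2, its inhibitor Keap1 and its targets, 21 tested probes gave 4 called higher and 5 called lower, with a median of -0.04, and over all tested probes 16.5% were called higher and 13.6% lower with a median of 0.05. The lower calls include probes of Keap1, at -0.46 and -0.42 (limma adjusted p = 0.018 and 0.0364), so they are not all of NRF2 targets. Further Keap1 probes were at -0.31 and -0.27 and not called. The median of the list changed sign with single arrays left out, at -0.18, 0.01 and -0.02 for scramble replicate 1, 2 and 3 and -0.05, -0.08 and -0.01 for the same numbers of the DJ-1 siRNA group. Nfe2l2, which encodes NRF2, rose by 0.73 (limma adjusted p = 0.00918) and the ferritin gene Ftl1 by 0.56 (limma adjusted p = 0.0145, lost at 0.57 and 0.50 without DJ-1 siRNA replicate 1 and 3), while Gclc, for glutathione synthesis, fell by 0.77 (limma adjusted p = 0.0076) and by 0.28 without background correction. For Srxn1, a sulfiredoxin, 1 of 3 probes was called lower, but it was detected on 3 scramble and 2 DJ-1 siRNA arrays and close to background in the latter, so the size of its change is not given. The counts were 1 higher and 2 lower with DJ-1 siRNA replicate 1 or 3 left out, and without scramble replicate 2 or 3, with no filter and with background-corrected arrays shifted to a common 75th percentile the lower count was 3. Among 18 genes of SREBP and its targets, 20 tested probes gave 1 called higher and 5 called lower, with a median of -0.20 that was -0.36 and -0.31 with scramble replicate 1 and DJ-1 siRNA replicate 3 left out and -0.09 without background correction. Sqle fell as given above, Cyp51 fell by 0.52 (limma adjusted p = 0.0112), Elovl6 fell by 0.49 on 1 of 2 probes and the sterol carrier Stard4 rose by 0.48. The call of Elovl6 was lost with no filter, and that of Stard4 with no filter and with the replicate block. With single arrays left out, Elovl6 was called only without scramble replicate 3 (-0.55 to -0.40 where it was lost), and Stard4 only without DJ-1 siRNA replicate 2 (0.39 to 0.52 where it was lost). The lower count was 3 with no filter and without scramble replicate 2 or any 1 of the DJ-1 siRNA replicates, and the higher count was 0 with no filter, with the replicate block and without scramble replicate 1 or 3 or DJ-1 siRNA replicate 1 or 3.

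Markers of cell state moved beside Tkt, and their counts stand against 13.6% of all tested probes called lower, 16.5% called higher and a median of 0.05. Counts at an unadjusted p under 0.05 stand against 3439 lower and 4220 higher of all 17890 tested probes. All 18 probes of 12 myotube genes were detected on all 6 arrays, Acta1 being the brightest of them, and 11 were called lower and 0 higher by limma (11 and 0 at an unadjusted p under 0.05), with a median log2 fold change of -0.69. Their summed normalized signal on the linear scale was 226514, 211431 and 215823 in scramble and 163590, 174200 and 143833 in knockdown samples. Every knockdown sample was below every scramble sample, and with DJ-1 siRNA replicate 1 left out 7 probes were called lower. The called probes were those of Myh1 (-1.93 and -2.19), Myh8 (-1.11 to -1.01), Actn2 (-1.03 and -1.12), Myod1 (-0.90), Tnnc2 (-0.82), Des (-0.56) and Tnnt3 (-0.52), and those of the other 5 genes, Acta1, Ckm, Myh3, Mb and Myog, were not called. All 12 genes were detected on every array of both groups, in keeping with the label of differentiated myotubes. Of 9 tested probes for dividing myoblasts 3 were called lower (1, near the share of all tested probes, with DJ-1 siRNA replicate 1 or 3 left out) and 0 higher by limma (3 and 3 at an unadjusted p under 0.05). Their median was 0.20, and 0.11 with DJ-1 siRNA replicate 2 left out and -0.06 with a stricter filter on dim probes, under which 2 were called higher. The probes of Mki67, Top2a and Cdk1 had positive log2 fold changes and were not called, and the called ones were those of Ccnb1 (1 of 2), Id1 and Id3. The summed signal of the list was 5426, 5916 and 5438 in scramble and 4971, 5599 and 5133 in knockdown samples with Cdk1 the brightest, and Pax7 was detected on no array. Of 6 tested fibroblast probes 5 were called lower (2 with scramble replicate 3 or DJ-1 siRNA replicate 1 or 3 left out and with background-corrected arrays shifted to a common 75th percentile, and 3 with no filter or with the replicate block) and 0 higher by limma (6 and 0 at an unadjusted p under 0.05), their sum being 24270, 23214 and 23784 in scramble and 14712, 16679 and 14220 in knockdown samples with Col3a1 the brightest, and Lum and Thy1 were detected on no array. The part of these shifts in the rise of Tkt was not tested. For adipocytes 2 probes were tested, of which Pparg was called higher (1.06) and Lpl lower (-0.59). Both were detected on every array, while Adipoq, Plin1, Lep and Cidec were detected on no array. With single arrays left out Pparg was called only without scramble replicate 1 or 2 and Lpl only without DJ-1 siRNA replicate 2, and neither was called with no filter. The call of Lpl was also lost with the replicate block and with background-corrected arrays shifted to a common 75th percentile. Of 4 tested osteoblast probes 0 were called by limma, and 1 was lower at an unadjusted p under 0.05. In this list 1 was called lower with DJ-1 siRNA replicate 2 left out, with array weights and with a stricter filter. The 1 tested macrophage probe, of Cd68, was called only with scramble replicate 2 left out.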

How the data were processed

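The 6 arrays belong to 1 Illumina Mouse WG-6 V2 BeadChip. The authors deposited, without normalization or background subtraction, the mean intensity of each probe over its beads with its standard error as written by GenomeStudio, the number of beads as a further (other) value, and a detection p-value against the negative controls. Members and lists were chosen with earlier results of these data known. Intensities were corrected and quantile normalized with neqc (R 4.3.3, limma 3.58.1, offset 16), probes with a detection p-value under 0.05 on at least 3 arrays were fitted over the whole table (lmFit, eBayes), with Benjamini-Hochberg adjustment over all 17890 of them. Each probe was kept apart. A probe is called at an adjusted p under 0.05. Intervals are 95% intervals of the moderated test, and for single values a two-sided exact permutation test was used. Entrez numbers or accessions matched 32345 probes to RefSeq (GRCm38.p6) symbols, and other probes, among them that of Pgd, kept the name in the file. No coordinates of probes were used. Genes named besides the members are Park7, their paralogs and direct partners, and the called probes with the largest changes of at most 4 genes in each of 6 context lists. Keap1 and Pygm of these lists are named as well. Marker lists covered myotubes, dividing myoblasts, adipocytes, osteoblasts, fibroblasts and macrophages. On simulated data the steps recovered 107 of 200 probes (53.5%) given a log2 change of 1, with 5 false calls. Of these 200, 196 passed the filter. Only 200 probes were changed there, a far smaller share than the 30.1% called in the data, so the recovered share does not give the power of the fit to the data. The number of arrays limits the precision. Alternatives tried were no background correction, a 75th percentile shift with and without it, no filter, a filter at 0.01 on all arrays, an offset of 50, a variance trend, array weights, a replicate block, each array left out and the mean of the probes of a gene.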

Additional observations from a re-analysis of the deposited data

How the results depend on the processing

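The rise of Tkt was called under all 16 alternatives, with log2 fold changes of 0.76 to 0.92 and limma adjusted p of at most 0.0203, and the fall of Park7 under all 15 (-1.24 to -1.003). The number of member probes called was 1 under 15 of 16 alternatives and 2 with the variance trend, where Pgd was added, and with single arrays left out it was 1 each time. The number of changed probes among all tested was 3519 without a filter, where 45281 were tested, and ran from 2559 to 5271 with single arrays left out, where fewer samples were compared.

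Taldo1, G6pdx, Idh1, Rpe and Rpia among the uncalled members, and Me2 outside them, changed sign near 0, and the cause was not tested. Pgd, H6pd and the bright Pgls probe kept their sign. Taldo1 was at 0.012 when background-corrected arrays were shifted to a common 75th percentile. With single arrays left out, log2 fold changes ran from -0.17 to 0.31 for G6pdx, from -0.079 to 0.076 for Idh1, from -0.28 to 0.071 for Rpe, from -0.17 to 0.013 for Rpia and from -0.016 to 0.12 for Me2. No scaling moved the median of all tested probes by over 0.1. Among the members, Park7, the partner genes and the named genes, a call was lost 59 times over these alternatives and never for a member. Losses among the markers, Keap1 and other list probes are outside this count. Without background correction the changes of several dim called probes were smaller, such as -0.28 in place of -0.77 for Gclc.

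The replicate numbers were not used as pairs, because the correlations of same-numbered samples were 0.05, 0.05 and 0.02, although every sample correlated best with its own number. The median deposited signal also matched by number, at 162.2, 167.4 and 153.5 in scramble and 161.0, 166.9 and 152.3 in DJ-1 siRNA replicate 1, 2 and 3. The labels do not say whether same-numbered samples belong together. With the replicate block 4350 probes were called in place of 5387, Park7 was at -1.16, and 1 member probe was called. Signal close to background limits what G6pdx and the dim Pgls probe can show.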
